A study of Mus musculus with 12 samples.

Results

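Stat3 binding was examined around 9 genes that control cell survival and growth and are commonly listed as Stat3 targets: the kinase genes Pim1, Pim2 and Pim3, the anti-apoptotic genes Mcl1, Bcl2, Bcl2l1 and Birc5, and the cell cycle genes Ccnd1 and Cdkn1a. They were chosen by name from 21938 protein-coding genes, with earlier results on these data known, so that the counts below are no test. Every Stat3 peak summit within 50 kb of any of their annotated start sites was collected. Summits were found near 4 of the 9 genes, Pim1, Pim3, Mcl1 and Birc5, and all of them came from cells stimulated with LIF, for which 7.38% of all protein-coding genes had such a summit. No summit of any other condition lay near any of the 9, where the shares of all protein-coding genes were 0.41% to 1.15%. Although these genes are known as lying downstream of Stat3, no list placed a summit near the other 5, Pim2, Bcl2, Bcl2l1, Ccnd1 and Cdkn1a, and expression was not analysed here.

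The samples were mouse embryonic fibroblasts (MEFs), immortalised cells from Stat3fl/fl embryos in which Cre had removed endogenous Stat3, and to which Stat3 was returned from an MSCV retroviral vector. The lines were polyclonal and sorted for GFP. They expressed either WT-Stat3 (-/-WT) or Stat3-C3S (-/-C3S), a redox-insensitive mutant. Chromatin immunoprecipitation with an anti-Stat3 antibody was followed by sequencing in 2 replicates of each of 5 conditions: -/-WT basal, -/-WT with LIF (10 ng/ml for 45 min), -/-WT with peroxide for 1 h, -/-C3S basal and -/-C3S with peroxide for 1 h. All cells were kept overnight in 0.5% FBS beforehand. The labels give the peroxide dose as 100 mM, and the methods give 100 µM. The input DNA and the IgG precipitate of -/-WT cells were not analysed here.

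Both replicates of a condition had been combined before peaks were called, so that there was 1 list of summits per condition, no replicate error and no test of a difference between conditions. There were 1088 summits with LIF, and far fewer elsewhere: the -/-WT lists held 230 (basal) and 450 (peroxide), and the -/-C3S lists 145 (basal) and 223 (peroxide). According to the study's text, more unique reads were obtained from the LIF libraries than from the others, and the files hold no depth, so that the number of unique reads and LIF stimulation cannot be told apart in any contrast of the LIF list with another. The windows around the summits differed as well. Within 80 bp of LIF summits, 9.72% of bases lay in masked repeats, against 94.4% to 99.3% in the other 4 lists.

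LIF acts through the gp130 receptor chain and the associated Jak kinases, which phosphorylate Stat3 on a tyrosine. Phosphorylated Stat3 dimerises through its SH2 domains, enters the nucleus and binds a palindromic DNA element, the sis-inducible element (SIE), whose consensus is TTCCNGGAA. Several of its known target genes oppose apoptosis or promote entry into the cell cycle, and these genes have been studied above all in tumours in which Stat3 is constantly active.

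The sequences of 7 of the 8 LIF summits near the 9 genes are given here because each of them holds an SIE with at most 1 mismatch. Each run covers 80 bp on either side of the summit on the plus strand of GRCm38, with the SIE in capitals. None of them overlaps an annotated untranslated region.
Pim1, distal upstream, chr17:29470016-29470176: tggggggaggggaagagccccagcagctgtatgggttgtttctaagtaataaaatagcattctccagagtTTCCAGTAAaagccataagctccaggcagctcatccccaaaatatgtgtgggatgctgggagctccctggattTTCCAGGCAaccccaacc
Pim1, start site, chr17:29490215-29490375: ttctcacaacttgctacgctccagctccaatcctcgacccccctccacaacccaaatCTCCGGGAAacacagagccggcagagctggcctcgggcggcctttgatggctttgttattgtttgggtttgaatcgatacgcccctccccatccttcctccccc
Pim3, first upstream, chr15:88837637-88837797: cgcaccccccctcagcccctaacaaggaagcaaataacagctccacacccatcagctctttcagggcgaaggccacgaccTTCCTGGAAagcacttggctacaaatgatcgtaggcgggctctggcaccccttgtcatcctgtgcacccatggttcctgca
Pim3, second upstream, chr15:88838223-88838383: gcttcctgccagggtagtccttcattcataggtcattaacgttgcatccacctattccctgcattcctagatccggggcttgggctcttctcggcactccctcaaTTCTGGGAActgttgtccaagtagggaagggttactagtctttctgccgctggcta
Pim3, downstream, chr15:88867592-88867752: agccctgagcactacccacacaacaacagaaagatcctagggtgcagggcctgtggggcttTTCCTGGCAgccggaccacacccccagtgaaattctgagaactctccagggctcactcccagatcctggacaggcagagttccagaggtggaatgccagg
Mcl1, downstream, chr3:95674323-95674483: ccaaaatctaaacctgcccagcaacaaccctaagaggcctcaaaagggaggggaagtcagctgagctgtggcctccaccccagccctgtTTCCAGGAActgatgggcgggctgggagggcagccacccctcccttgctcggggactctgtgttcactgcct
Birc5, upstream, chr11:117822859-117823019: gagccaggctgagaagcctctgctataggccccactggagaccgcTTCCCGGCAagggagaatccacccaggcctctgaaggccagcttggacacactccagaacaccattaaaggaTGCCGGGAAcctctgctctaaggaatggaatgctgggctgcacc

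The SIE matched the consensus fully at 2 of the 8 summits. At the first upstream summit of Pim3 the site TTCCTGGAA was centred 4 bp from the summit, and at the summit downstream of Mcl1 the site TTCCAGGAA was centred 13 bp from it. At 5 further summits the best site had 1 mismatch, written here as the consensus base, the position counted from 1 at the 5′ end of the site on the plus strand, and the base found. The distal Pim1 summit had G7T at 6 bp and A8C at 67 bp. The other Pim1 summit, labelled start site above, had T1C at 19 bp. It lay 0.458 kb upstream of the nearest start site, which its printed run does not reach. Both Pim1 summits thus held degenerate sites only. The second upstream summit of Pim3 had C4T at 29 bp, and its downstream summit had A8C at 15 bp. The Birc5 summit held 2 sites, A8C at 31 bp and T2G at 41 bp. The remaining Pim3 summit, 18.1 kb upstream, had no such site.

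**Figure D1:**
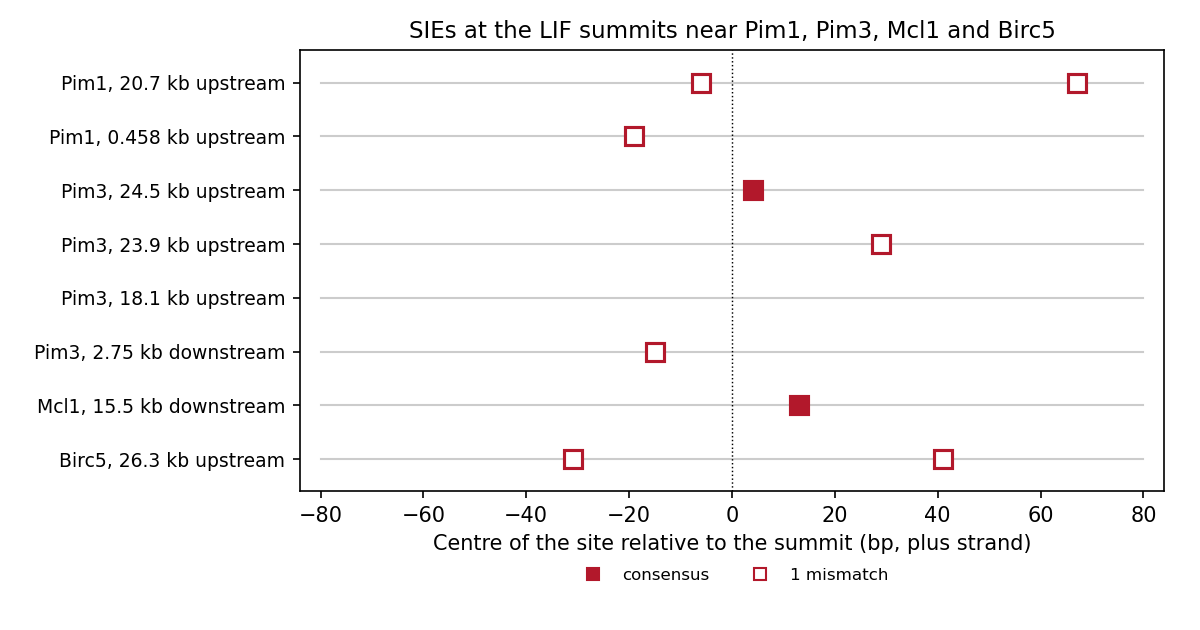
Position of each SIE within 80 bp of the 8 LIF summits near Pim1, Pim3, Mcl1 and Birc5; the horizontal axis is the distance of the centre of the site from the summit in bp on the plus strand, and each row is 1 summit, named by its gene and its distance from the nearest start site. Filled squares are consensus sites, at 2 summits, and open squares are sites with 1 mismatch, at 5 others.

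The same sites were counted over the whole LIF list. A consensus SIE lay within 80 bp of 15.3% of all LIF summits, and an SIE with up to 1 mismatch within 80 bp of 66.6%, beside 2 of 8 and 7 of 8 here. The median distance from the summit to the nearest SIE was 15 bp for the 7 summits that had one. The motif TGANTCA, which is bound by AP-1 dimers of Fos and Jun proteins, was within 80 bp of 23.2% of all LIF summits and of 0 of the 8. No difference was tested for these counts, which rest on 8 summits. With the window widened to 150 bp on either side, 1 of the 8 had an AP-1 site, against 32.7% of all LIF summits. That site, TGACTCA, was centred 111 bp from the Pim3 summit that lacked an SIE. Both motifs were searched on both strands, they do not overlap each other in sequence, and a match is a description of the letters only.

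Pim1, a serine/threonine kinase gene whose product promotes survival and cooperates with Myc, lies on the plus strand at chr17:29490753-29496112 and had 2 LIF summits. The first, at position 29470096, had a score of 33.6, rank 52 of 1088, and lay 20.7 kb upstream, in the promoter of the antisense gene Gm26885. The second, at position 29490295, had a score of 8.54 and rank 595, a score that 30 summits shared, and lay 0.458 kb upstream of the nearest start site. The distal summit was therefore the higher of the pair, and the one at the gene's own promoter fell in the lower-scoring part of the list. A promoter was taken as 5 kb upstream to 0.5 kb downstream of a start site. Pim1 was the only one of the 9 genes with a LIF summit in its own promoter, where 1.62% of all protein-coding genes had one.

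Pim3, whose product is a close relative of Pim1, lies on the plus strand at chr15:88862186-88865726 and had 4 LIF summits. At least 4 LIF summits within 50 kb were found for 22 protein-coding genes, or 0.1%, and at least 2, as for Pim1 and Pim3, for 1.2%. The highest, at position 88838303, had a score of 45.8 and rank 22, shared by 2 summits, and lay 23.9 kb upstream. It was the highest of all 8 summits near the 9 genes. A second one, at position 88867672, had a score of 39.6 and rank 36 and lay 2.75 kb downstream of the nearest start site, or 1.95 kb past the end of the gene. The other two were weaker: position 88837717 had a score of 6.74 and rank 765, and position 88844048 had a score of 2.91 and rank 1041. The first of these lay only 0.586 kb from the highest summit, and it was this weak summit, not its strong neighbour, that held the consensus SIE. Both of these adjoining summits were nearer to the start site of another gene, Creld2, at 18.1 and 18.7 kb, than to Pim3. Creld2 encodes a protein of the endoplasmic reticulum. Position alone therefore does not assign these summits to Pim3.

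Pim2, the X-linked member of the kinase family, lies on the plus strand at chrX:7878262-7883432 and had no LIF summit within 50 kb. The nearest was 502 kb upstream, with a score of 1.59 and rank 1086, among the lowest of the list. On the X chromosome as a whole there were 7 LIF summits, and 0.949% of its protein-coding genes had one within 50 kb. The 3 Pim genes thus ranged from 4 summits to none.

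**Figure D2:**
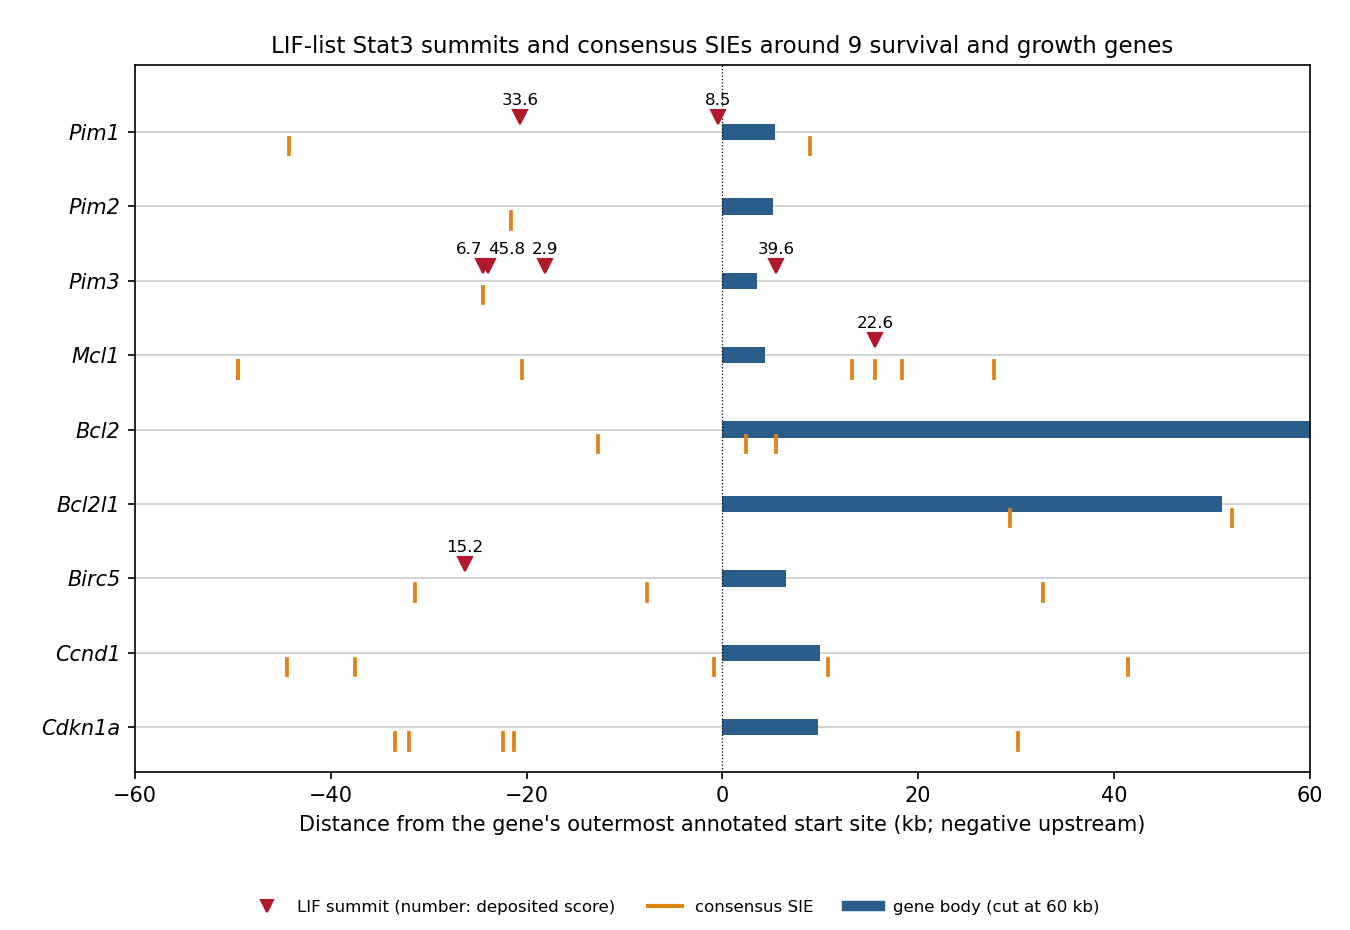
LIF summits (triangles, with the deposited score above each) and consensus SIEs (ticks) around the 9 genes; the horizontal axis is the distance in kb from the outermost annotated start site, upstream to the left, and blue bars are gene bodies, cut at the edge of the plot. Distances in the text are to the nearest of a gene's start sites, so that the Pim3 summit given as 2.75 kb downstream is drawn farther out. Summits are drawn for 4 genes and none lies within a gene body; each of the 9 genes has at least 1 consensus SIE, as do 94.4% of all protein-coding genes.

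Mcl1, a short-lived anti-apoptotic protein of the Bcl2 family that sequesters pro-apoptotic members at mitochondria, is encoded on the plus strand at chr3:95658788-95663176 and had 1 LIF summit. This summit, at position 95674403, had a score of 22.6 and rank 129, shared by 6 summits, and lay 15.5 kb downstream of the nearest start site and 11.2 kb past the end of the gene, between genes. A start site of Adamtsl4, which encodes a secreted glycoprotein, was closer, at 2.75 kb, but the summit lay past the 3′ end of that gene. Among the summits near the anti-apoptotic genes it was the only one with a consensus SIE.

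Birc5 encodes survivin, a member of the inhibitor of apoptosis family that also serves the chromosomal passenger complex in mitosis. The gene lies on the plus strand at chr11:117849251-117855743 and had 1 LIF summit, at position 117822939, with a score of 15.2 and rank 278. The summit lay 26.3 kb upstream, in the promoter of Afmid and in an exon of a non-coding transcript of Tk1, whose start site was 2.88 kb away. Tk1, the thymidine kinase gene of the DNA salvage pathway, was the gene with the nearest start site. For both Mcl1 and Birc5 the summit was therefore nearer to another gene.

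Bcl2, the founding anti-apoptotic gene of its family, lies on the minus strand at chr1:106538178-106714274. It had no LIF summit within 50 kb, and the nearest was 13.5 Mb away. Bcl2l1, which encodes Bcl-xL, lies on the minus strand at chr2:152780668-152831728 and was flanked by LIF summits that fell outside the window. One, at position 152904252, was 72.5 kb upstream of the gene and ranked 1002 with a score of 3.63, and the other, at position 152741596, was 39.1 kb past the 3′ end of the gene and 86.9 kb from the nearest start site. Of the 5 genes without a summit, Bcl2l1 had the closest one, and Bcl2 had the most distant.

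Ccnd1 encodes cyclin D1, which drives Cdk4 and Cdk6 in early G1. It lies on the minus strand at chr7:144929931-144939925, and the nearest LIF summit was 3.46 Mb away, with none between the gene and the distal end of the chromosome. Cdkn1a encodes p21, an inhibitor of cyclin-dependent kinases that is induced by p53. It lies on the plus strand at chr17:29090976-29100727, on the same chromosome as Pim1, and its nearest LIF summit was 300.4 kb downstream at position 29398292, with a score of 13.8 and rank 327, between Cdkn1a and Pim1. Neither cell cycle gene had a LIF summit within 50 kb.

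Summits are numbered in the lists, and some numbers are missing, the highest number in the LIF list being 1124 for 1088 summits. A larger part was missing in the other lists. The highest numbers were 503 for 230 summits (-/-WT basal) and 815 for 450 (-/-WT peroxide). In the -/-C3S lists they were 366 for 145 (basal) and 452 for 223 (peroxide). No number was missing between the LIF summits that flanked Pim2, Bcl2, Bcl2l1 or Cdkn1a, and Ccnd1 had no summit on one side to which this check could be applied. How the numbers were assigned is not given in the sources used here.

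In all, 8 LIF summits lay near 4 of the 9 genes, against 7.38% of all protein-coding genes with at least 1 LIF summit in the same window. The genes were picked with earlier results on these data known, so that the excess over the background is a count and not a test. Of the 8 summits, 6 were upstream and 2 downstream of the gene, and none was inside it. The 4 genes are only 3.54 to 6.49 kb long, so that their bodies fill little of the window. No share over all LIF summits is set beside these positions. The gene itself had the nearest protein-coding start site for 4 of them, both at Pim1 and 2 at Pim3. Their scores ran from 2.91 to 45.8 with a median of 18.9, the median of the LIF list being 9.44, and 5 of the 8 were above the median of the list. The scores have no stated unit and were compared within the list only.

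**Figure D3:**
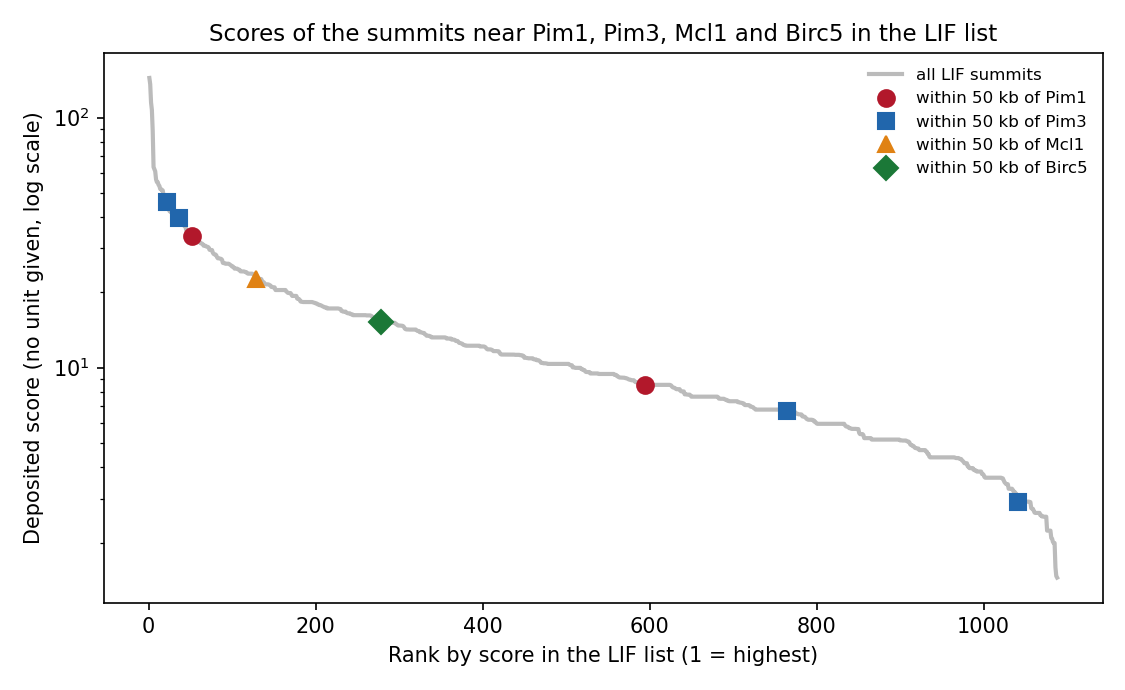
Deposited score (vertical axis, log scale, no unit given) against rank for all 1088 LIF summits (line), with the 8 summits within 50 kb of Pim1, Pim3, Mcl1 and Birc5 marked. Pim3 holds both the highest (45.8) and the lowest (2.91) of the 8.

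The other 4 lists held no summit within 50 kb of any of the 9 genes. The background for such a summit was low in each of them. In -/-WT cells it was 0.615% of protein-coding genes in the basal list and 1.15% in the peroxide list, and in -/-C3S cells it was 0.41% in the basal list and 0.574% in the peroxide list. A count of 0 of 9 is near these shares and says nothing particular about the 9 genes. The closest summit of the -/-WT basal list was 419 kb from Bcl2, and that of the -/-WT peroxide list was 945 kb from Pim2. In the -/-C3S lists the closest were 1344 kb from Bcl2l1 under basal conditions and 1106 kb from Bcl2 with peroxide. Of the 36 pairs of a gene and a list, 34 were at least 1 Mb apart. Such distances were usual for any gene. Over all protein-coding genes the median distance to the nearest summit was 5207 kb (-/-WT basal) and 2787 kb (-/-WT peroxide). In the -/-C3S lists it was 7118 kb (basal) and 5238 kb (peroxide).

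At Bcl2, all of the other 4 lists had a summit closer to the gene than the LIF list did. Its chromosome, chromosome 1, held 32 LIF summits. The -/-WT lists held 19 (basal) and 39 (peroxide) there, and the -/-C3S lists 11 (basal) and 17 (peroxide). How often another list was the nearest over all protein-coding genes was not computed, so that nothing particular to Bcl2 is shown. The nearest summit to Bcl2 was at 419 kb (-/-WT basal), 1040 kb (-/-WT peroxide), 6890 kb (-/-C3S basal) and 1106 kb (-/-C3S peroxide). At each of the other 8 genes the LIF list gave the nearest summit of the 5. For Bcl2l1 the nearest summits of the other 4 lists all lay 1344 kb upstream, between positions 154176131 and 154176161. In these lists, numbers were missing between the flanking summits for 17 of the 36 pairs and for 6 none was missing, while 13 had no flanking summit on one side.

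**Figure D4:**
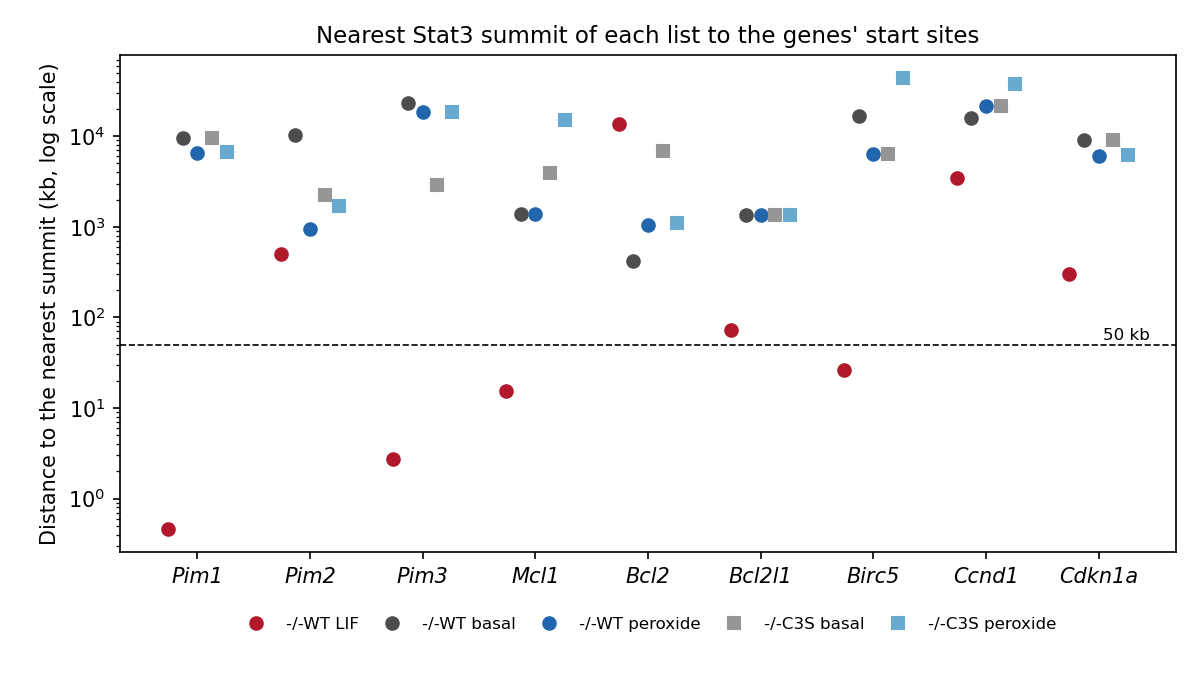
Distance in kb (log scale) from the nearest start site of each of the 9 genes to the nearest summit of each list; circles are -/-WT lists and squares -/-C3S lists, each from pooled replicates. The dashed line marks 50 kb, below which lie the LIF points of Pim1, Pim3, Mcl1 and Birc5 and no point of another list.

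The genes with and without a LIF summit were on chromosomes that differed in the density of LIF summits. The density was 0.923 per Mb on chromosome 15, which carries Pim3, 0.579 on chromosome 17 with Pim1 and Cdkn1a, 0.556 on chromosome 3 with Mcl1 and 0.418 on chromosome 11 with Birc5. It was 0.423 on chromosome 2 with Bcl2l1, 0.261 on chromosome 7 with Ccnd1, 0.164 on chromosome 1 with Bcl2 and 0.0409 on the X chromosome with Pim2. The 3 lowest of these chromosomes each carry a gene without a summit. On chromosome 15, 19% of protein-coding genes had a LIF summit within 50 kb, and on chromosome 3, 10.4%, both above the 7.38% of the genome, whereas on chromosomes 17 and 11 the shares were 6.44% and 6.47%. The part of this density in which genes had a summit was not tested.

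**Figure D5:**
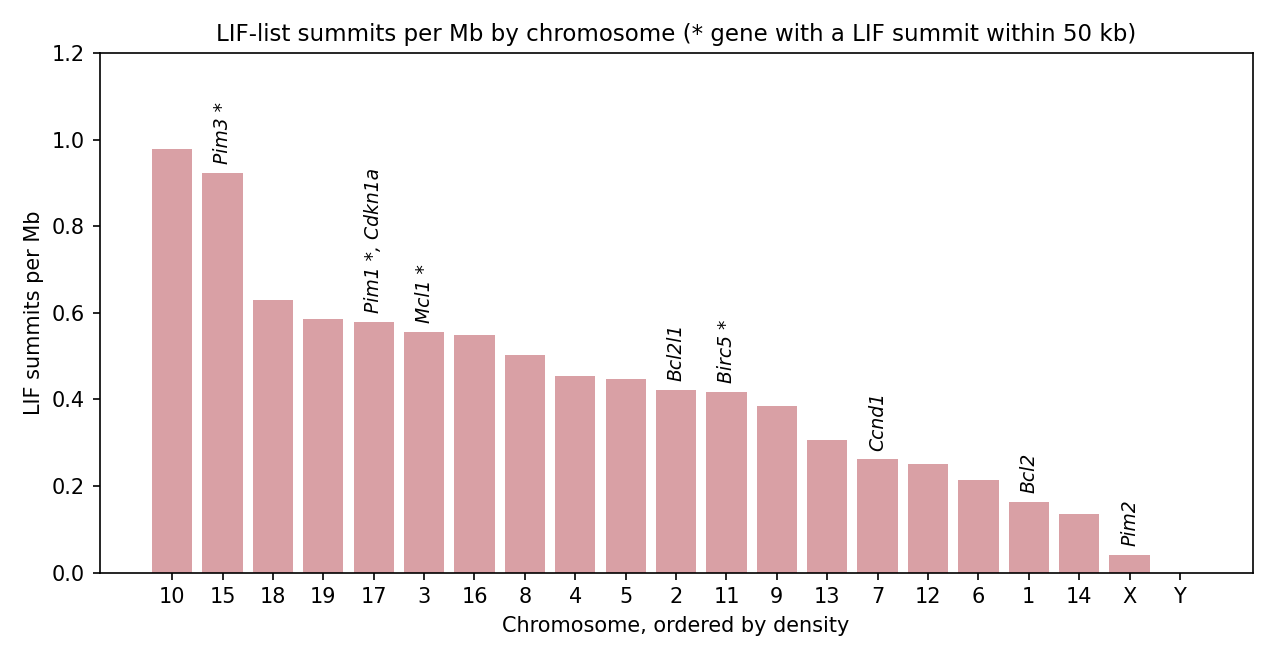
LIF summits per Mb (vertical axis) for each chromosome, ordered by density, with the 9 genes written above the chromosome they lie on and an asterisk on those with a LIF summit within 50 kb. Pim3 sits on the chromosome with 0.923 per Mb and Pim2 on the one with 0.0409 per Mb.

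Consensus SIEs were present around the genes with a LIF summit and around those without. Within 50 kb of the start sites there were 29 consensus SIEs, 13 at the 4 genes with a LIF summit and 16 at the 5 without. Every one of the 9 genes had at least 1, as did 94.4% of all protein-coding genes, and the median was 3 per gene both over the 9 and over all protein-coding genes. Mcl1 had 7, Ccnd1 and Cdkn1a 5 each, Bcl2 and Birc5 3 each, Pim1 and Bcl2l1 2 each, and Pim2 and Pim3 1 each. Of the 29, those within 80 bp of a LIF summit were 1 site of Pim3 and 1 of Mcl1. In the genome as a whole, 174 of 69398 consensus SIEs, or 0.251%, were within 80 bp of a LIF summit. This share is not a matched background. It includes sites at any distance from genes, whereas the 29 lie within 50 kb of genes picked with results known.

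Ccnd1 was the one gene of the 9 with a consensus SIE in its promoter, TTCCAGGAA at chr7:144940789-144940797, 0.868 kb upstream of the nearest start site, and no LIF summit was called there. A consensus SIE was present in the promoters of 25.9% of protein-coding genes. Pim1, with the only promoter summit, had the degenerate site CTCCGGGAA in place of a consensus one. At Mcl1, the summit downstream of the gene stood between other consensus SIEs at 13.2 kb and 18.3 kb from the start site that had no summit of their own.

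Genes of the same pathways were taken from 4 lists with the 9 genes left out. LIF summits lay within 50 kb of 3 of these 38 genes, or 7.89%, close to the 7.38% of all protein-coding genes. They numbered 0 of 10 anti-apoptotic genes, 1 of 11 pro-apoptotic genes, 1 of 10 cyclins and cyclin-dependent kinases and 1 of 7 inhibitors of these kinases and Rb. No summit of the other 4 lists was near any of the 38, where the shares of all protein-coding genes were 0.41% to 1.15%. None of the 38 had a LIF summit in its promoter, where 1.62% of all protein-coding genes had one. With shares this low, these counts of 0 say nothing particular about the 38. The 3 genes are named here after their values were seen. Bad, a pro-apoptotic partner of Bcl-xL, had a LIF summit 1.69 kb downstream, in an exon of Plcb3, that scored 13.1, ranked 357 and held the consensus SIE TTCCCGGAA centred 2 bp from it. Cdk6, a partner of cyclin D1, had one in an intron, 27.9 kb past its nearest start site, that scored 4.81 and ranked 917. Cdkn2d, which encodes the p19 inhibitor of Cdk4 and Cdk6, had one 3.04 kb downstream that scored 11.3 and ranked 423, but it lay in the promoter of Kri1, 0.146 kb from its start site.

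The median distance to the nearest LIF summit was 72.5 kb for the 9 genes, 733 kb for the 38 related genes and 805 kb for all protein-coding genes. The 9 genes therefore included more with a nearby LIF summit than the related genes did, 4 of 9 against 3 of 38, which is given as a count because the 9 were picked with results known.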

How the data were processed

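Stat3 ChIP-seq was performed in -/-WT and -/-C3S MEFs under 5 conditions with 2 replicates each. The submitters' processing notes name mm10, HISAT2, Picard and MACS2, without versions or settings. The paper reports peaks whose depth exceeded IgG by over 2-fold for basal and LIF-stimulated -/-WT cells, and gives no such figure for the other conditions. The authors deposited 1 summit list per condition, replicates combined, with a score per summit. MACS2 commonly writes the −log10 of a p or q value there, but the setting is not given in the sources used here, so scores were only ranked within a list. The files hold no read depth.

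Distances were computed to every start site of GENCODE M21 on GRCm38 (patch release 6), whose coordinates mm10 shares. Summits with equal scores share a rank. Place, motifs within 80 bp and the share of protein-coding genes with a summit in the same window were computed with Python 3.11.15, NumPy 2.4.6, pysam 0.24.0 and samtools 1.23.1, and plots with matplotlib 3.10.9. With 1 list per condition no test was possible. As a check of the code, 200 of 200 positions drawn inside the window and 0 of 200 just outside it were counted as near. All 200 of 200 consensus SIEs placed in random sequence were found. The check applied the same rules that it tested, so that it says nothing about the lists.

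The genes, the related lists and the rules were chosen with earlier results of these data known. Named were the 9 genes, the gene nearest to each of their summits, and related genes with a LIF summit in the promoter or another list's summit within 10 kb, of which there were none. Bad, Cdk6 and Cdkn2d were named outside this rule, after their values were seen, because the count they make up is spelled out. The alternatives for the related genes were added after the data were seen.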

Additional observations from a re-analysis of the deposited data

How the results depend on the processing

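Other windows, start sites, thresholds and motif settings were tried, 86 values in all, of which 24 moved beyond counting error or beyond the limit set for counts, and 62 did not. Those that did not move include the counts of 0 for the other 4 lists, which only the 100 kb window could have raised. The tally is therefore no measure of stability. The number of the 9 genes with a LIF summit was 2 with a window of 10 kb (Pim1 and Pim3; 2.69% of all protein-coding genes), 1 in the promoter (Pim1; 1.62%) and 2 when a summit was given only to the nearest protein-coding gene (Pim1 and Pim3; 3.12%). With 25 kb Birc5 was lost (4.49% of all protein-coding genes), and with 100 kb Bcl2l1 was gained (12.4%). In the promoter, 0 of the related genes had a LIF summit. Allowing 1 mismatch raised the LIF summits with an SIE from 2 to 7 of 8 and the genes with an SIE in the promoter from 1 to 9 of 9, where 98.3% of all protein-coding genes then had one. With 100 kb no gene gained a summit from the other 4 lists, whose closest summit was 419 kb from a start site. The remaining settings of window, start site or list could only remove summits.

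No paired analysis was possible because each list combines both replicates of its condition, and for the same reason no replicate was left out. The absence of a summit covers only what the authors called and kept. Weaker peaks and contacts beyond 50 kb were not measured, and a nearest start site does not show which gene a site acts on.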
